A study of Caenorhabditis elegans with 8 samples.

Results

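The cyp-14A subfamily of cytochrome P450 genes has 5 members in Caenorhabditis elegans, cyp-14A1 to cyp-14A5. They were picked by gene symbol among the 46726 genes of each deposited table, and all 5 were found and passed the filter on low counts. RNA was measured in whole animals of 4 groups with 2 libraries each. The first was a strain derived from N2 that carries am286, a loss-of-function allele of hizr-1, with cadmium chloride. The second was the same mutant without it, the third the wild-type strain N2 with cadmium chloride, and the fourth N2 without it. Populations of mixed stages had grown for 4 days and were then moved for 16 to 18 h at 20 °C to noble agar minimal medium, where their food was a concentrated lawn of E. coli OP50. The labels write the dose as 0 or 100 mM cadmium chloride. That unit could not be checked here, and doses for this animal are usually micromolar. Each library pooled 10 plates of parallel cultures, so p-values measure the spread between such cultures. The series asks how cadmium acts through HIZR-1, a nuclear receptor that binds zinc and switches on genes of the high zinc response.

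Cytochrome P450 enzymes carry a haem group and use it to insert an oxygen atom into their substrates, with electrons that reach them through a partner reductase. The family number and the subfamily letter in a P450 name mark groups of related protein sequence. In nematodes many P450 genes are active in the intestine and are induced by foreign compounds, often through nuclear receptors. No substrate is assigned to the CYP-14A enzymes here.

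Of the 5 genes, 4 lie near each other on the X chromosome and the fifth is on chromosome V. By the coordinates of the files (WBcel235), cyp-14A1 (WBGene00010705) spans X 13265081 to 13267338, cyp-14A2 (WBGene00010706) 13267605 to 13269697 and cyp-14A3 (WBGene00010707) 13271877 to 13274218. The next member, cyp-14A4 (WBGene00011009), spans X 13282096 to 13284204, and cyp-14A5 (WBGene00000373) spans V 5421012 to 5423305. All 5 are on the - strand. The 4 X genes fit into 19124 bases. The gaps are 266 bases between cyp-14A1 and cyp-14A2, 2179 bases between cyp-14A2 and cyp-14A3, and 7877 bases between cyp-14A3 and cyp-14A4, where the gene phf-33 lies.

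The gene structure is shared beyond the name. Each member has 7 exon blocks, with a summed length of 1476 to 1590 bases. Counted from the 5′ end, the second block is 136 bases long, the fourth 125, the fifth 260 and the sixth 158 in all 5 genes. The third block is 467 bases long in 4 members and 464 in cyp-14A4. None of the 1807 other genes with 7 blocks has those 4 lengths at those positions. None of the 69 other genes with a cyp symbol has all 4 of them anywhere. The 4 lengths were picked because all 5 members share them, so their absence elsewhere is a description and not a test. Genes that share fewer of the lengths are not given here. The annotation places 5 small non-coding genes inside members, of which 2 lie in introns of cyp-14A4 and 3 overlap exon blocks of cyp-14A2 or cyp-14A3. Together these 5 had 0 counts over the 8 libraries. How reads that match several members were counted is not given in the sources used here.

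Libraries held between 17681352 and 29586507 counts in all. In CPM, which scales counts to the size of the library, a floor of 3 counts for a gene that went unseen was 0.101 to 0.170, for counting error only. Levels below are CPM with TMM factors between libraries. The targeted gene hizr-1 was lower in each mutant library than in any wild-type library. It had 0.785 ± 0.202 CPM in the mutant with cadmium and 0.542 ± 0.227 CPM in the mutant without, against 3.45 ± 0.00110 and 2.25 ± 0.307 CPM in the wild type with and without cadmium (SD, n = 2 each). By edgeR's quasi-likelihood test it was lower in the mutant with cadmium (log2 -2.16 ± 0.347, adjusted p = 0.00635) and did not pass without it (-1.99 ± 0.377, adjusted p = 0.0931). Intestinal markers, 12 genes, summed to 5232 to 5923 CPM in the mutant libraries and 5847 to 6998 CPM in the wild-type ones, and none of them was at 0. Sperm markers varied within groups as well as between them, and their sum was lowest in the exposed wild type. Of 30 listed sperm genes 27 were tested, and 1 of the 30 was at 0 in each library. The tested genes summed to 221 and 269.7 CPM in the mutant with cadmium and 337.4 and 182.9 CPM without. In the wild type they summed to 26.2 and 60.7 CPM with cadmium and 85.1 and 220.5 CPM without. In whole animals, fewer cells of a type and less RNA per cell cannot be told apart.

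Cadmium raised cyp-14A4 in the wild type, and this was the 1 of 5 members that passed. In the wild type with cadmium it had 366 and 366 counts, or 12.5 and 16.4 CPM. In the wild type without cadmium it had 19 and 23 counts, or 0.677 and 1.09 CPM. The groups were far apart, and the wild type with cadmium stood above all 6 other libraries. The log2 fold change was 4.05 ± 0.305 (SE; 95% interval 3.38 to 4.71), a 16.5-fold difference with an interval of 10.4 to 26.2, and edgeR's quasi-likelihood test gave an adjusted p of 4.66e-05. Among the 15818 genes tested, cyp-14A4 was 4th by p and 8th by log2 fold change. The count of 1 of 5 members compares with 0.234% of all genes tested called higher and 0.0506% called lower in this contrast. Summed sperm markers were lower in both exposed than in both unexposed wild-type libraries. With their median as covariate in the edgeR fit the log2 fold change of cyp-14A4 was as large, at 4.56 ± 0.344 (adjusted p = 1.34e-05, range over the 15 alternatives 2.24e-28 to 0.00412).

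**Figure D1:**
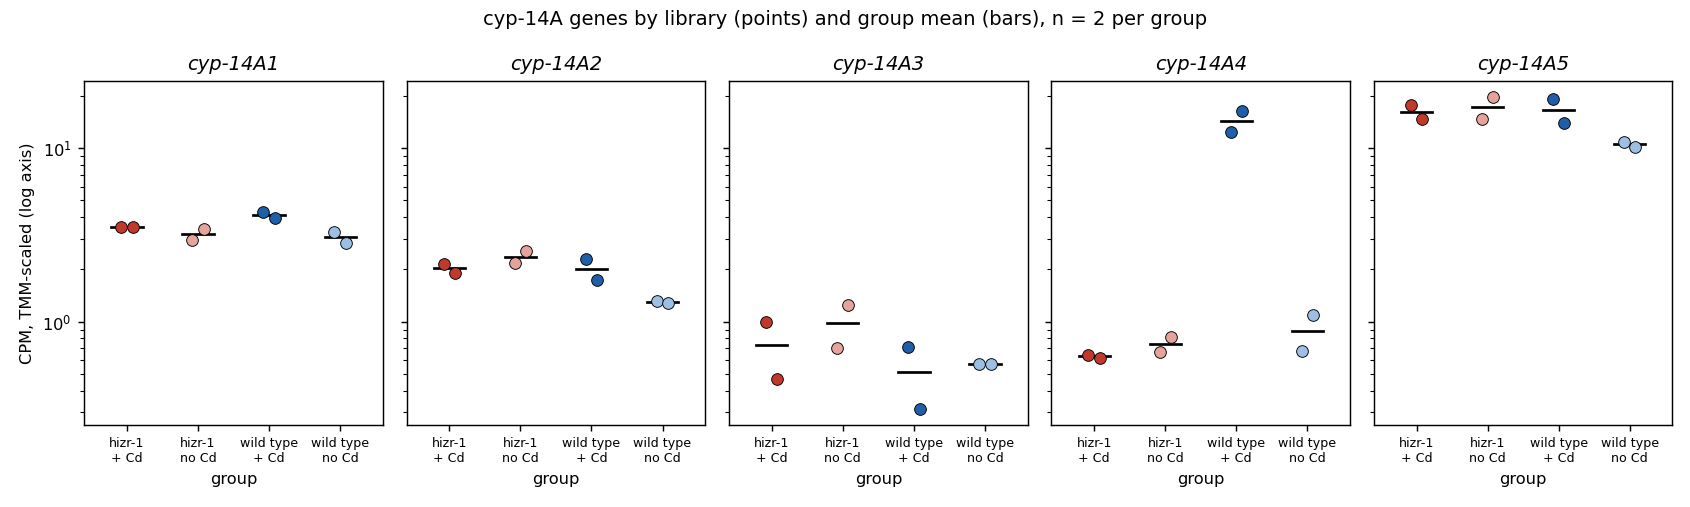
Level of each cyp-14A gene in CPM (log axis) in the 8 libraries, by group; points are libraries and bars the group means, n = 2 per group. In the cyp-14A4 panel the wild-type libraries with cadmium sit at 12.5 and 16.4 CPM and the other 6 libraries between 0.618 and 1.09 CPM.

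The remaining 4 members did not pass in the wild type, with log2 fold changes between -0.10 and 0.65 and a lowest adjusted p of 0.332. The nearest in size was cyp-14A5, the member on chromosome V. It had 19.2 and 14.1 CPM with cadmium against 10.9 and 10.2 CPM without, a log2 fold change of 0.65 ± 0.225 (95% interval 0.163 to 1.14, unadjusted p = 0.0130 from the same edgeR fit, adjusted p = 0.332). Its exposed libraries lay above its unexposed ones, but how common that was over all genes tested was not counted. The difference was not called over all genes.

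For cyp-14A2 the values were 2.29 and 1.75 CPM with cadmium and 1.32 and 1.28 CPM without, a log2 fold change of 0.64 ± 0.304 (adjusted p = 0.448 by edgeR). For cyp-14A1 they were 4.30 and 3.94 CPM with cadmium and 3.28 and 2.84 CPM without, a log2 fold change of 0.43 ± 0.243 (adjusted p = 0.527 by edgeR). In both genes the groups did not overlap, but how common that was over all genes tested was not counted. The lowest member, cyp-14A3, had 0.717 and 0.313 CPM with cadmium and 0.570 and 0.569 CPM without, from 21, 7, 16 and 12 counts, and its groups overlapped. Its log2 fold change was -0.10 ± 0.55 by edgeR, and its interval of -1.30 to 1.10 is wide.

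The intervals of these 4 genes reach no higher than 1.30, below the lower bound of 3.38 for cyp-14A4. A fold change above 2.46 thus lies outside the interval of each of them, while cyp-14A4 has a lower bound of 10.4-fold. In the exposed wild-type libraries the counts of the other X members were 126 and 88 for cyp-14A1, 67 and 39 for cyp-14A2, and 21 and 7 for cyp-14A3, beside 366 and 366 for cyp-14A4.

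In the hizr-1 mutant 0 of 5 members passed with cadmium. Here 0.0253% of all genes tested were called higher and 0.00632% lower, so a count of 0 among 5 genes is near the background. By edgeR, 282 of 15818 genes had an unadjusted p under 0.05 in this contrast, and none of the 5 members was among them (lowest unadjusted p = 0.476). The gene cyp-14A4 had 0.642 and 0.618 CPM in the mutant with cadmium and 0.664 and 0.819 CPM in the mutant without, from 20, 12, 17 and 15 counts. The exposed libraries lay slightly below the unexposed ones, but how common that was over all genes tested was not counted. The log2 fold change was -0.21 ± 0.38, with a 95% interval of -1.04 to 0.613, so a rise above 1.53-fold lies outside it.

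The other members showed the same lack of calls in the mutant. For cyp-14A5 the values were 17.8 and 14.7 CPM with cadmium and 14.8 and 19.9 CPM without, with a log2 fold change of -0.09 ± 0.222 (edgeR adjusted p = 1.00). For cyp-14A1 they were 3.53 and 3.50 CPM with and 2.97 and 3.44 CPM without (0.14 ± 0.246 in log2). For cyp-14A2 they were 2.15 and 1.91 CPM with and 2.19 and 2.57 CPM without (-0.22 ± 0.293 in log2). For cyp-14A3 they were 0.995 and 0.464 CPM with and 0.703 and 1.26 CPM without (-0.33 ± 0.501 in log2). Of these 4 genes, the groups were apart for cyp-14A1 and cyp-14A2, in opposite directions, and overlapped for cyp-14A3 and cyp-14A5. The share of all genes tested with groups apart was not counted, so no result about the members is drawn from this.

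The interaction tests whether the genotypes differ in their response, with the wild-type log2 fold change subtracted from the mutant one. It was negative for cyp-14A4, with -4.26 ± 0.491 in log2 (95% interval -5.33 to -3.19, edgeR adjusted p = 0.00388). That member alone passed, 1 of 5, against 0.107% of all genes tested with a negative and 0.00632% with a positive difference. The call was lost in 1 of 14 alternatives: without replicate 2 of the wild type with cadmium the difference was -4.05 ± 0.50 and the adjusted p 0.0777, over a range of 2.99e-11 to 0.0777 in the alternatives. The other members had differences of -0.85 to -0.23, none of which passed. Of these, cyp-14A5 had the smallest unadjusted p, 0.0374 by edgeR, with -0.74 ± 0.316 and an adjusted p of 1.00.

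**Figure D2:**
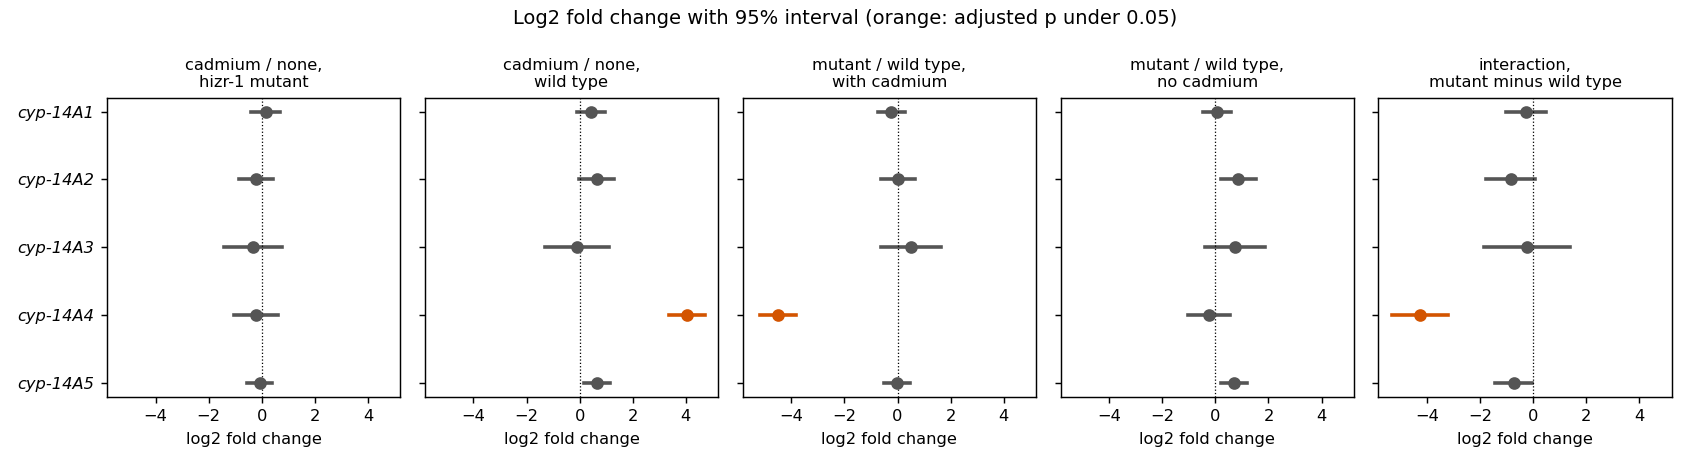
Log2 fold change of the 5 cyp-14A genes in 5 comparisons, with 95% intervals, where orange marks an adjusted p under 0.05. The 3 orange values all belong to cyp-14A4, at 4.05 for cadmium in the wild type, -4.50 for mutant over wild type with cadmium and -4.26 for the interaction.

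Between the genotypes with cadmium present, cyp-14A4 was lower in the mutant by the same edgeR test. It had 0.642 and 0.618 CPM in the mutant against 12.5 and 16.4 CPM in the wild type, which did not overlap. The log2 change was -4.50 ± 0.317 (edgeR adjusted p = 2.14e-05). This comparison, the wild-type response and the interaction share the exposed wild-type libraries, so they are not independent of each other. Of the 5 members, 0 were called higher and 1 lower, where 3.83% of all genes tested were higher and 0.43% lower. The other 4 members had log2 changes of -0.23 to 0.52, with adjusted p of 0.999 each by edgeR. Their mutant libraries overlapped the wild-type ones or, for cyp-14A1, lay below them at 3.53 and 3.50 CPM against 4.30 and 3.94 CPM. The share of all genes tested with groups apart was not counted.

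Without cadmium, 0 of 5 members passed between mutant and wild type, where 0.0885% of all genes tested were higher and 0.0379% lower in the mutant. The gene that rose with cadmium was alike in range, with 0.664 and 0.819 CPM for cyp-14A4 in the mutant against 0.677 and 1.09 CPM in the wild type. Its log2 change was -0.24 ± 0.365, with a 95% interval of -1.04 to 0.553 and an edgeR adjusted p of 0.916.

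A pair of members was instead lowest in the wild type without cadmium. For cyp-14A5 the unexposed mutant had 14.8 and 19.9 CPM against 10.9 and 10.2 CPM in the unexposed wild type, a log2 change of 0.71 ± 0.226 (unadjusted p = 0.00835, edgeR adjusted p = 0.257). For cyp-14A2 they were 2.19 and 2.57 CPM against 1.32 and 1.28 CPM, a log2 change of 0.86 ± 0.305 (unadjusted p = 0.0151, edgeR adjusted p = 0.319). In both genes the unexposed wild-type libraries lay below all 6 other libraries, which started at 14.1 CPM for cyp-14A5 and at 1.75 CPM for cyp-14A2. How many of all genes tested had this order was not counted, so it cannot be told from the background. Neither difference passed over all genes, except for cyp-14A5 when genes with low counts were kept (edgeR adjusted p = 0.0468, range over the alternatives 0.0468 to 0.685). Summed sperm markers overlapped between these groups, with 337.4 and 182.9 CPM in the unexposed mutant and 85.1 and 220.5 CPM in the unexposed wild type. All 27 tested sperm genes lay above 0 in log2 here, with a median of 0.824, and 0 were called. With the median of the sperm list as covariate cyp-14A5 was at 0.86 ± 0.185 in log2 (edgeR adjusted p = 0.0614). The part of the sperm markers in the result was not tested further.

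Levels between members can be compared per exon length, as TMM-scaled RPKM. The highest was cyp-14A5, with means of 10.2 ± 1.37 RPKM in the mutant with cadmium, 10.9 ± 2.26 RPKM in the mutant without, 10.5 ± 2.28 RPKM in the wild type with cadmium and 6.66 ± 0.310 RPKM in the wild type without (SD, n = 2 each). In 3 of the 4 groups the next were cyp-14A1 at 2.07 to 2.38 RPKM and cyp-14A2 at 0.864 to 1.58 RPKM, each apart from its neighbours in the order. In those groups cyp-14A3 and cyp-14A4 came last, at 0.375 to 0.645 and 0.419 to 0.588 RPKM. The libraries of these last members overlapped in both mutant groups and were apart in the unexposed wild type.

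The exposed wild type had another order. There cyp-14A4 reached 9.60 ± 1.83 RPKM, second to cyp-14A5 at 10.5 ± 2.28 RPKM, and the libraries of these members overlapped, while cyp-14A1 at 2.79 ± 0.174 RPKM, cyp-14A2 at 1.34 ± 0.255 RPKM and cyp-14A3 at 0.339 ± 0.188 RPKM followed apart from each other. Among all 75 P450 genes in the tables, ranked by mean RPKM, cyp-14A4 was 16th in the exposed wild type. It was 53rd in the exposed mutant, 54th in the unexposed mutant and 47th in the unexposed wild type. By the same ranking cyp-14A5 was 9th, 10th, 12th and 14th in the mutant with and without and the wild type with and without cadmium.

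As a share of the subfamily's summed RPKM, cyp-14A4 made up 32.9 and 45.8% in the exposed wild-type libraries, against 4.17 and 7.03% in the unexposed ones. In the mutant it made up 2.65 and 3.02% with cadmium and 3.04 and 3.23% without, each range from its lowest to its highest library. The summed RPKM of all 5 members was 16.1 and 13.6 in the exposed mutant, 13.7 and 17.9 in the unexposed mutant, 25.3 and 23.8 in the exposed wild type and 10.8 and 10.3 in the unexposed wild type. With cyp-14A4 left out of the sum, the wild-type values were 17.0 and 12.9 with cadmium and 10.4 and 9.59 without. Of the sum with all 5 members, cyp-14A5 held 37.2 to 69.8% in every library.

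**Figure D3:**
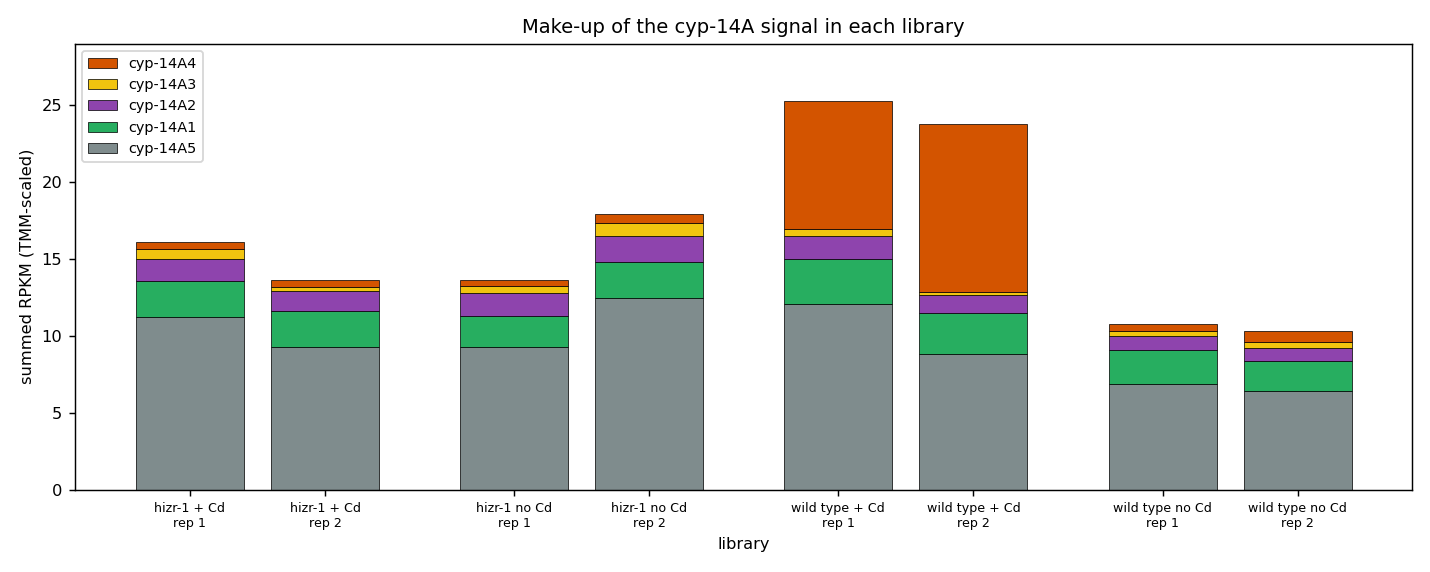
Summed TMM-scaled RPKM of the 5 cyp-14A genes in each library, stacked by gene. The exposed wild-type bars reach 25.3 and 23.8 RPKM, and cyp-14A4, at the top of each bar, takes 32.9 and 45.8% of them.

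None of the genes around the members was called. With cadmium in the wild type 0.234% of all genes tested were called higher and 0.0506% lower, so a count of 0 among 9 genes is near the background. The nearest protein-coding genes on either side of the X members and of cyp-14A5 were 9 tested genes outside the subfamily, and 0 of them passed in any of the 5 comparisons (lowest adjusted p in edgeR 0.502 for cadmium in the wild type and 0.354 over the 5). They were K08H2.10, K09A11.1, phf-33, R04D3.2 and R04D3.4 on X, and F08F3.10, F08F3.6, rhr-1 and F08F3.8 on V. Of these rhr-1 encodes a Rhesus-type ammonium transporter. The gene R04D3.2 lies 923 bases from cyp-14A4 on the same strand and had 1312 and 1255 counts in the wild type with cadmium and 1317 and 1014 without. On the other side lies phf-33, with 11 and 3 counts with cadmium and 12 and 4 without. In CPM the exposed and unexposed wild-type libraries of both genes overlapped, while cyp-14A4 between them rose 16.5-fold.

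**Figure D4:**
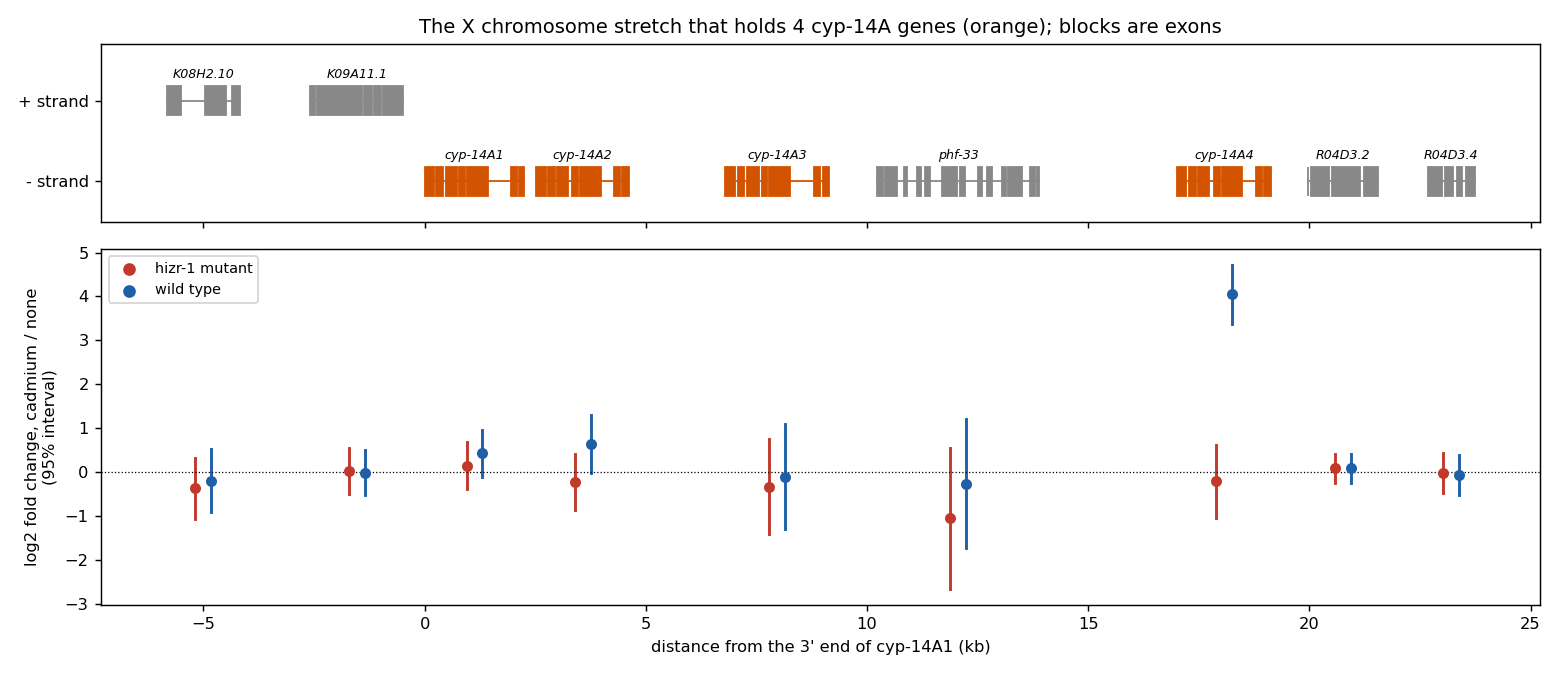
Exon blocks of the 4 X-linked cyp-14A genes (orange) and their protein-coding neighbours, by distance in kb from the 3′ end of cyp-14A1 and by strand, above the log2 fold change with cadmium of each gene with its 95% interval, in the hizr-1 mutant (red) and the wild type (blue). Of the 9 genes drawn, cyp-14A4 in the wild type, at 4.05, is the one value past the threshold.

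Other P450 genes were set beside the subfamily as a list chosen with earlier results known. Of 60 tested P450 genes outside cyp-14A, 4 were called higher with cadmium in the wild type and 0 lower (background 0.234 and 0.0506%), and 51 of 60 lay above 0, with a median log2 change of 0.42 against -0.01 over all genes tested. They were 3 of 10 cyp-13A genes and 1 of 8 cyp-33C genes. In the mutant 0 passed and 21 of 60 lay above 0, with a median of -0.07. The genes were cyp-13A4 (5.26 ± 0.361), cyp-13A7 (4.43 ± 0.401), cyp-33C7 (2.22 ± 0.239) and cyp-13A5 (1.94 ± 0.311, edgeR adjusted p = 0.0286). The call for cyp-13A5 was lost without either exposed wild-type library, among 4 of 15 alternatives (adjusted p up to 0.446). Only cyp-13A4 and cyp-13A7 had a larger log2 fold change than cyp-14A4 among the 65 P450 genes tested, and cyp-14A5, cyp-14A2, cyp-14A1 and cyp-14A3 stood 17th, 18th, 33rd and 61st. Next by p in the edgeR fit came cyp-13A6 (1.98 ± 0.41, adjusted p = 0.0955) and cyp-34A9 (1.10 ± 0.261, adjusted p = 0.165), neither of which passed.

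The level of cyp-13A4 ran close to that of cyp-14A4. It had 11.8 and 19.6 CPM in the exposed wild type against 0.463 and 0.332 CPM in the unexposed wild type, and 0.610 and 0.773 CPM in the exposed mutant against 0.742 and 0.710 CPM in the unexposed mutant. Its interaction was -5.36 ± 0.555 (edgeR adjusted p = 0.00167), and cyp-13A7 and cyp-33C7 had negative ones too, at -5.26 ± 0.62 (0.00388) and -2.04 ± 0.334 (0.0418). The interaction of cyp-13A7 was lost without either exposed wild-type library (edgeR adjusted p = 0.0577 and 0.0927), and that of cyp-33C7 in 9 of 14 alternatives, among them those without any 1 exposed library or unexposed mutant library (up to 0.445). With cadmium, 4 of the 60 other P450 genes were lower in the mutant than in the wild type and 1 higher (background 0.43 and 3.83%). Lower were cyp-13A4 (-4.52), cyp-13A7 (-4.22), cyp-13A5 (-2.15) and cyp-33C7 (-1.60). With the sperm covariate the calls of cyp-13A5 and cyp-33C7 were lost (edgeR adjusted p = 0.275 and 0.27), and that of cyp-13A5 also without replicate 1 of the exposed wild type. The P450 called between the genotypes both with and without cadmium was cyp-29A2. It had 12.5 and 11.5 CPM in the exposed mutant against 2.29 and 1.75 CPM in the exposed wild type, and 13.5 and 16.3 CPM in the unexposed mutant against 1.64 and 1.14 CPM in the unexposed wild type (edgeR adjusted p = 0.00033 and 0.000152, with 95% intervals in log2 of 2.01 to 3.12 and 2.82 to 3.98). The second of these was lost when the fit held only the libraries compared (adjusted p = 0.137).

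**Figure D5:**
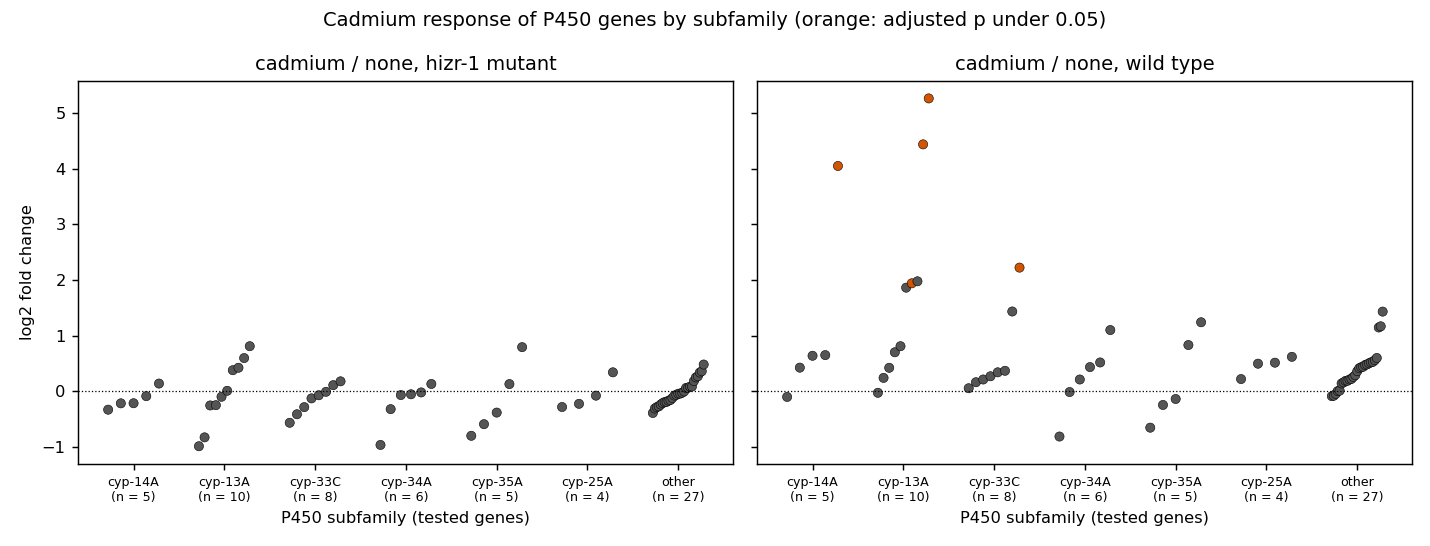
Log2 fold change with cadmium of each of 65 tested P450 genes, by subfamily, in the hizr-1 mutant (left) and the wild type (right), where orange marks an adjusted p under 0.05. In the wild type the orange points are cyp-14A4 at 4.05, cyp-13A4 at 5.26, cyp-13A7 at 4.43, cyp-13A5 at 1.94 and cyp-33C7 at 2.22, and the mutant panel has none.

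Over the 8 libraries, the genes whose log2 CPM ran most like that of cyp-14A4 were cdf-2 and mtl-1 (Pearson r = 0.989 each), C29F7.2 (0.985), bcmo-2 (0.978) and T16G1.6 (0.973), among 2793 genes with an SD of at least 0.5. These values are descriptions, and the libraries fall into the study's groups. The gene cdf-2, a zinc transporter that loads gut granules, had 15.3 and 17.9 CPM in the exposed wild type against 2.96 and 3.27 CPM in the unexposed wild type, and 3.63 and 3.14 CPM in the exposed mutant against 3.36 and 3.22 CPM in the unexposed one. The metallothionein gene mtl-1, whose product binds metal ions, had 282 and 290 CPM in the exposed wild type against 6.20 and 4.74 CPM in the unexposed one, and 3.71 to 4.29 CPM in the mutant libraries. All 5 genes rose with cadmium in the wild type, by 1.17 ± 0.153 for C29F7.2 up to 5.70 ± 0.188 for mtl-1 in log2. Such a rise was built into picking them by likeness to cyp-14A4, so only its size is a description. The call for C29F7.2 was lost without replicate 1 of the exposed wild type (edgeR adjusted p = 0.0686, range over the alternatives 2.45e-08 to 0.0686).

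The other members had other nearest genes. For cyp-14A1 they were the nuclear receptor gene nhr-155 (r = 0.965), F15B9.6 (0.962), C35A5.5 (0.949), F47H4.2 (0.940) and F09C6.3 (0.935), and its own SD over the libraries was 0.192 in log2. For cyp-14A2 they were math-21 (0.943), Y6G8.2 (0.923), gadr-4, spp-7 (0.920 each) and R11A5.3 (0.918). For cyp-14A5 they were T19D12.9 (0.944), sdz-5 (0.921), math-21 (0.920), arrd-5 (0.918) and fbxb-35 (0.917). For cyp-14A3 the values were lower, with WBGene00020081 (0.919), T27A1.2 (0.891), WBGene00014809 (0.888), C04E12.5 (0.882) and nas-13 (0.881). Within the subfamily the closest pair was cyp-14A2 on X and cyp-14A5 on V (r = 0.962), while cyp-14A4 stood at -0.447 with cyp-14A3, 0.084 with cyp-14A2, 0.193 with cyp-14A5 and 0.744 with cyp-14A1, all over 8 libraries. The exposed wild-type libraries were also the highest of all for cyp-14A1, at 4.30 and 3.94 CPM against 2.84 to 3.53 CPM in the other 6. That member was not called, and how many of all genes tested had this order was not counted.

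Genes that serve or regulate P450 enzymes were counted by lists chosen with earlier results known. With cadmium in the wild type 0.234% of all genes tested were called higher and 0.0506% lower. A count of 0 in lists this short is thus near the background. Of 4 redox partner genes, emb-8 (the P450 reductase), cytb-5.1, cytb-5.2 and vem-1, 0 passed in the 5 comparisons, with a median of 0.07 for cadmium in the wild type. Of 11 regulator genes 0 passed for cadmium in the wild type (median 0.07) or in the mutant (median -0.03), and hizr-1 alone was lower in the mutant than in the wild type with cadmium. That call was lost without replicate 1 of the exposed mutant (edgeR adjusted p = 0.0946) or of the exposed wild type (0.127) and with the sperm covariate (0.155). Of 7 tested genes of haem supply, which brings the P450 cofactor, 0 passed in the wild type. The gene hrg-7, whose secreted product signals haem status, fell in the mutant (-1.11 ± 0.153, adjusted p = 0.0454) with an interaction of -1.31 ± 0.214 (0.0418), both by edgeR. The first call was lost in 9 of 15 alternatives (adjusted p up to 0.929) and the second in 9 of 14 (up to 0.245), among them, for both, those without any 1 mutant library or exposed wild-type library. Of the 5 high zinc response genes, which are cdf-2, cdr-1, ttm-1 and both metallothionein genes, 5 rose with cadmium in the wild type (median 5.26) and 0 in the mutant (median -0.01), and 4 had a negative interaction. The interactions of mtl-2 (edgeR adjusted p = 0.0943 and 0.0927) and cdf-2 (0.0741 and 0.111) were lost without replicate 1 or 2 of the exposed wild type, and that of cdf-2 also without replicate 1 or 2 of the exposed mutant (0.0741 and 0.17). Of the 5 genes ttm-1 lost its wild-type call in 8 of 15 alternatives, including those without either exposed library of the wild type or of the mutant or without replicate 2 of the unexposed wild type (edgeR adjusted p up to 0.156).

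Marker lists of tissues held no called gene for cadmium in the wild type. Over all genes tested 0.234% were called higher and 0.0506% lower, so this is near the background and does not show that the lists stayed level. The medians were 0.14 for intestine (12 genes), -1.84 for sperm (27), -0.23 for oocytes and early embryos (12), -0.17 for body muscle (7), 0.29 for neurons (8) and 0.28 for hypodermis (7), against -0.01 over all genes. All 27 sperm genes were below 0. With cadmium, 4 of 27 sperm genes were higher in the mutant than in the wild type (fer-1, peel-1, ssq-1 and spe-42), where 3.83% of all genes tested were higher. The list median was 2.58. With the sperm covariate all 4 of these calls were lost (edgeR adjusted p = 0.298 to 0.421). That covariate is the median of the list that holds these genes, so this fit cannot judge them. All 4 calls were also lost without replicate 2 of the exposed mutant (log2 change 1.67 to 2.34). The same held without replicate 1 of the exposed wild type (1.72 to 2.55). Calls for peel-1 and spe-42 were also lost without either of the other exposed libraries, that for ssq-1 without replicate 1 of the exposed mutant, and that for spe-42 without replicate 2 of the unexposed mutant.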

How the data were processed

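RNA from whole animals was depleted of ribosomal RNA and sequenced in 8 libraries. Per the submitters' processing notes, reads were handled with STAR 2.0.4b, featureCounts 1.45 and Subread on WBcel235. The strand setting and the treatment of reads with several matches are not given in the sources used here. Per the file headers, each table gives a raw count for every gene as the authors deposited it. Beside it stand the CPM values that the authors scaled to the total of the table, and the RPKM values that the authors further divided by gene length. Both were recomputed from the deposited counts to within rounding, and the results use the counts.

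A filter on low counts by group, with a minimum count of 10 and a minimum total of 15, kept 15818 genes. Counts were fitted with TMM factors in edgeR 4.0.16 (R 4.3.3), with 4 group means over all 8 libraries and the quasi-likelihood test, and p-values were adjusted by Benjamini-Hochberg over all genes tested, with 0.05 as threshold. Standard errors are the log2 fold change over the root of F, and intervals are at 95%. The fit was tested on simulated data. The dose unit is as the labels write it. The members and the lists were chosen with earlier results of these data known. The lists are other P450 genes, redox partners, regulators, haem supply, the high zinc response and markers of 6 tissues. Named genes were the members, the 5 genes most alike to each by Pearson correlation of log2 CPM (prior count 2), the nearest neighbours, up to 6 called genes of each list and the 6 other P450 genes with the smallest p. Alternatives used RLE factors, no filter, a replicate block, a sperm covariate, only the libraries compared, DESeq2 1.42.0, limma-voom (limma 3.58.1) and each library left out. No libraries were near duplicates, with a lowest chi-square per degree of freedom of 9.27. That value was between replicate 2 of the exposed mutant and replicate 1 of the unexposed mutant. Pairs of libraries within a group stood higher, at 24.0 to 61.6. Nucleotide and protein sequences were not used here. Precision follows the depth: at 7 to 31 counts per library, cyp-14A3 had the widest intervals.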

Additional observations from a re-analysis of the deposited data

Results flagged for a closer look

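The response of cyp-14A4 to cadmium differed between the genotypes by the interaction test, with a mutant minus wild-type log2 difference of -4.2601 (SE 0.491, edgeR adjusted p = 0.00388). The log2 fold change was -0.21 ± 0.38 in the hizr-1 mutant and 4.05 ± 0.305 in the wild type. Both exposed mutant libraries, at 0.642 and 0.618 CPM, lay below both unexposed ones, at 0.664 and 0.819 CPM, and both exposed wild-type libraries, at 12.5 and 16.4 CPM, lay above both unexposed ones, at 0.677 and 1.09 CPM. The cause was not tested.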

How the results depend on the processing

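All alternatives were planned. Of 370 alternative values for the members, 345 kept their direction and side of the threshold. The log2 fold change of cyp-14A4 ran from 3.72 to 4.56 for cadmium in the wild type and from -5.27 to -4.29 for mutant over wild type with cadmium, called in all 15 alternatives. Its interaction ran from -4.61 to -3.93 when each library was left out, and the count of members called in the interaction from 0 to 1. Without replicate 2 of the exposed wild type it was -4.05 (edgeR adjusted p = 0.0777). With no filter on low counts, 1 member (cyp-14A5, 0.74, adjusted p = 0.0468) was called between mutant and wild type without cadmium. The deviations of same-numbered libraries correlated at -0.431 to 0.42, with no common sign across the groups. This cannot settle whether the replicate numbers pair the samples. With the replicate block cyp-14A4 was at 4.04 (adjusted p = 0.000118) in the wild type and -4.24 (0.00644) in the interaction, and the calls of all members were as without it.

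Members that were not called changed sign in 23 cases. With the sperm covariate, mutant over wild type with cadmium was 0.12 for cyp-14A1 and 0.55 for cyp-14A5, and the interaction of cyp-14A3 was 0.61. For cyp-14A2, mutant over wild type with cadmium was -0.0199 with RLE factors, -0.0118 with only the libraries compared and -0.0166 in DESeq2. Leaving out each library gave ranges of -0.85 to 0.33 for cyp-14A3 with cadmium in the wild type, and of -1.04 to 0.11 for cyp-14A3 and -0.29 to 0.13 for cyp-14A5 with cadmium in the mutant. Mutant over wild type with cadmium ranged from -0.17 to 0.22 for cyp-14A2, -0.19 to 1.27 for cyp-14A3 and -0.23 to 0.21 for cyp-14A5. Without cadmium it ranged from -0.0400 to 0.164 for cyp-14A1 and -0.57 to 0.11 for cyp-14A4, and the interaction of cyp-14A3 from -0.93 to 0.53. The cause was not tested.

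Counts over all genes moved more. Cadmium in the wild type called 45 genes, against 576 with no filter, 26 with the sperm covariate, 399 with only the libraries compared, 199 in DESeq2 and 17 to 423 without each library. In the mutant it called 5, against 0 with the block or only the libraries compared, 1 in limma-voom, 3 with RLE factors, 11 in DESeq2, 14 with the sperm covariate, 21 with no filter and 0 to 14 without each library. Mutant over wild type with cadmium called 674, against 16 with the sperm covariate, 1188 with no filter and 1288 with only the libraries compared, and 24 to 1059 without each library. Without cadmium it called 20, against 630 with no filter, 68 with the sperm covariate, 0 with only the libraries compared, 95 in DESeq2, 11 in limma-voom, 12 with the block and 9 to 449 without each library. The interaction called 18, against 90 with no filter, 28 in DESeq2 and 4 to 71 without each library. With 2 libraries a group and counts as low as 7, small changes of cyp-14A3 were not detectable at this depth.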
